A study of Homo sapiens with 6 samples.

Results

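All γH2AX peaks called after pemetrexed in UNG knockout (KO) cells were set against all those called after pemetrexed in UNG wild-type (WT) cells. The members were every row of both deposited peak lists, 5278 for KO and 924 for WT, together 6202 of the 12579 peaks in the 4 lists of the series. Both groups were DLD1 cells, an established human colorectal cancer line, with the genotypes UNG-/- and UNG+/+ and pemetrexed as the agent. The other groups of the series were the same genotypes left untreated or given cisplatin, with 1 library for each of the 6 groups. The labels used here give no dose, no treatment time, no account of how the knockout was made and no number of clones behind it. The untreated libraries were not analysed here, so no background without drug stands beside the values below.

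γH2AX is histone H2AX phosphorylated near its carboxyl end by damage-activated kinases, and it spreads along the chromatin on both sides of a DNA double strand break. UNG is the glycosylase that cuts uracil out of DNA and so opens base excision repair. Pemetrexed is an antifolate that inhibits thymidylate synthase and other folate-dependent enzymes, which lowers the thymidine supply and favours uracil incorporation during replication. The design asks where γH2AX lay after the drug with and without this glycosylase.

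Each row held a chromosome, a start and an end in build hg18, and no height, score or read count. Read depth was unknown, each side had 1 library, and no test between genotypes was possible. The 95% intervals below are exact (Clopper-Pearson) binomial intervals, or exact order-statistic intervals for medians. They cover counting error within these lists only and take each peak as independent of its neighbours, which cannot hold within dense runs. Positions are printed as listed. No gene model of build hg18 was at hand, so regions are given by position, without gene, exon or sequence. The labels' genotype could not be checked from peak positions.

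KO peaks were more numerous and wider than WT peaks. The KO list was 5.71 times as long (95% interval 5.33 to 6.13). Its peaks covered 8.97 Mb in all, against 0.559 Mb in WT, a ratio of 16.03. The median width was 1172 bp in KO (1143 to 1196) and 585 bp in WT (580 to 588), a ratio of 2.003. The WT widths were tightly packed, with 10% of peaks under 493 bp and 10% over 735 bp, while the KO widths ran from 781 bp at the 10th percentile to 3133 bp at the 90th. The bulk of the KO widths lay above the bulk of the WT widths. Of the KO peaks, 99.03% (98.7 to 99.3%) were wider than the WT median, and 25.7% (24.5 to 26.9%) were wider than the widest WT peak of 1851 bp. Only 7 of 924 WT peaks, 0.758% (0.305 to 1.55%), were wider than the KO median.

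**Figure D1:**
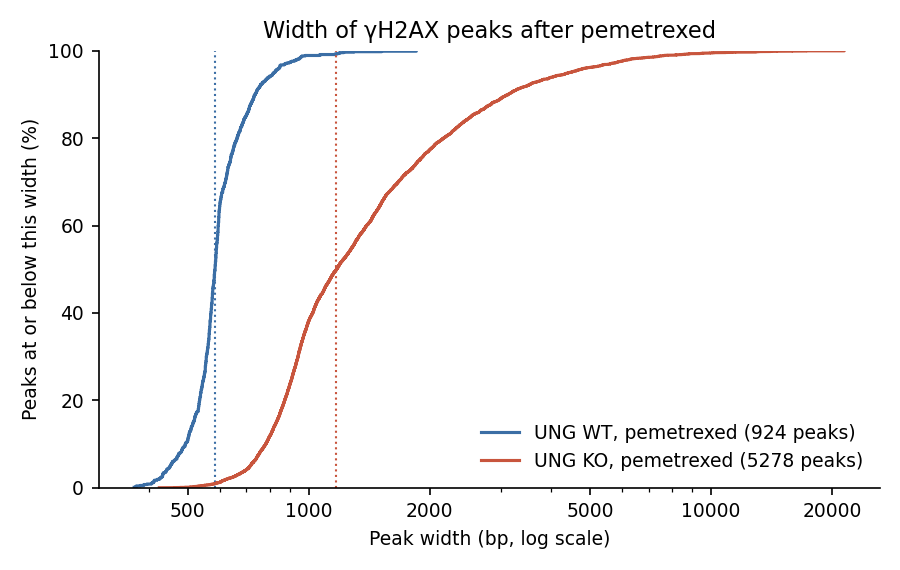
The horizontal axis is peak width in bp on a log scale and the vertical axis the percentage of a list's peaks at or below that width, for WT (blue, 924 peaks) and KO (red, 5278 peaks) after pemetrexed, with dotted lines at the medians. The WT curve climbs almost straight at its median of 585 bp, and the KO curve starts to the right of it and trails to 21459 bp.

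Most WT peaks, 589 of 924 (63.7%, 60.6 to 66.9%), were narrower than 600 bp, a class that held 66 KO peaks (1.25%, 0.968 to 1.59%). Peaks of at least 1 kb numbered 10 in WT (1.08%) and 3265 in KO (61.9%, 60.5 to 63.2%). The upper tail of the KO list carried much of its length. Its 1195 peaks of at least 2 kb held 49.2% of all KO covered bases, and its 201 peaks of at least 5 kb held 16.7%. There were 27 KO peaks of at least 10 kb.

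The 10 widest KO peaks lay on 9 chromosomes and spanned 13769 to 21459 bp. The widest, chr10:134114109-134135568 (21459 bp), met a WT cisplatin peak, and the fifth, chr17:76714584-76730455 (15871 bp), met a KO cisplatin peak. Between them in width came chr22:44895197-44912459, chr20:60228978-60246233 and chr19:18738924-18755509, of 17262, 17255 and 16585 bp. The last 5 were chr10:75275698-75291285 (15587 bp), chr4:1720619-1735160 (14541 bp), chr8:145025046-145039326 (14280 bp), chr1:2092797-2106882 (14085 bp) and chr14:104730075-104743844 (13769 bp). None of the 10 met a WT pemetrexed peak, and 8 met no peak of another list. Over the whole KO list, 0.246% of peaks met a WT pemetrexed peak and 6.23% met a KO cisplatin peak. For the 10 widest KO peaks, the distances to the nearest WT pemetrexed peak ran from 100015 bp on chromosome 20 to 1578664 bp on chromosome 4. The 10 widest WT peaks, of 1062 to 1851 bp, lay in other places. They gathered on chromosome 16 (4 peaks) and chromosome 10 (2 peaks), with 1 each on chromosomes 2, 6, 15 and Y. The 4 on chromosome 16 lay together in chr16:44943249-45012734, which began where the longest stretch of that chromosome without a peak in any list ended. The one on chromosome 6 ended where the longest such stretch of its chromosome began, 61972492 to 69013587. How well reads map beside these stretches, or at the WT peaks on chromosomes 2, 10, 15 and Y, was not tested. The sixth, chr6:61971305-61972492 (1187 bp), was 5058887 bp from the nearest KO peak, and the seventh, chr15:27213812-27214986 (1174 bp), was 20920 bp from one. The KO pemetrexed list had no peak at any of these 10 WT peaks, and over the whole WT list it had one at 1.41% of peaks.

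The chromosomes differed far more in KO than in WT. On the autosomes, WT density ran from 0.195 peaks per Mb on chromosome 4 to 0.673 on chromosome 22, taken over the covered span, from the outermost peak of the 4 lists at one end to that at the other. KO density on the autosomes ran from 0.304 per Mb on chromosome 18 to 11.8 on chromosome 19. On chromosome 19 there were 751 KO and 30 WT peaks, and on chromosome 18 there were 23 KO and 24 WT peaks. The ratio of KO to WT peak numbers was thus 25.03 at one end of the autosomes and 0.958 at the other, with a median of 5.16 over the 22 autosomes. It was above 10 on 4 chromosomes, at 12.02 on chromosome 16, 15.3 on chromosome 22, 17.8 on chromosome 17 and 25.03 on chromosome 19. The next highest was 7.28, on chromosome 9. Across the 22 autosomes, Spearman's rho between WT and KO density was 0.65. This value describes a single pair of libraries, in which chromosomes also differ in gene content and base composition.

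Width differed between the genotypes on every autosome, whatever the difference in number. Chromosome medians lay between 571.5 bp (chromosome 9) and 603 bp (chromosome 20) in WT and between 919 bp (chromosome 18) and 1339 bp (chromosome 9) in KO, so the ranges did not overlap. Chromosome 18 had about as many peaks in both lists, with median widths of 919 bp in KO and 585.5 bp in WT, and its KO peaks covered 31008 bp against 14623 bp. On chromosome 19 the KO peaks covered 1243287 bp and the WT peaks 17887 bp, a ratio of 69.5, against 2.12 on chromosome 18. Peaks took up 19.6 kb of each Mb of chromosome 19 in KO and 0.282 kb in WT.

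**Figure D2:**
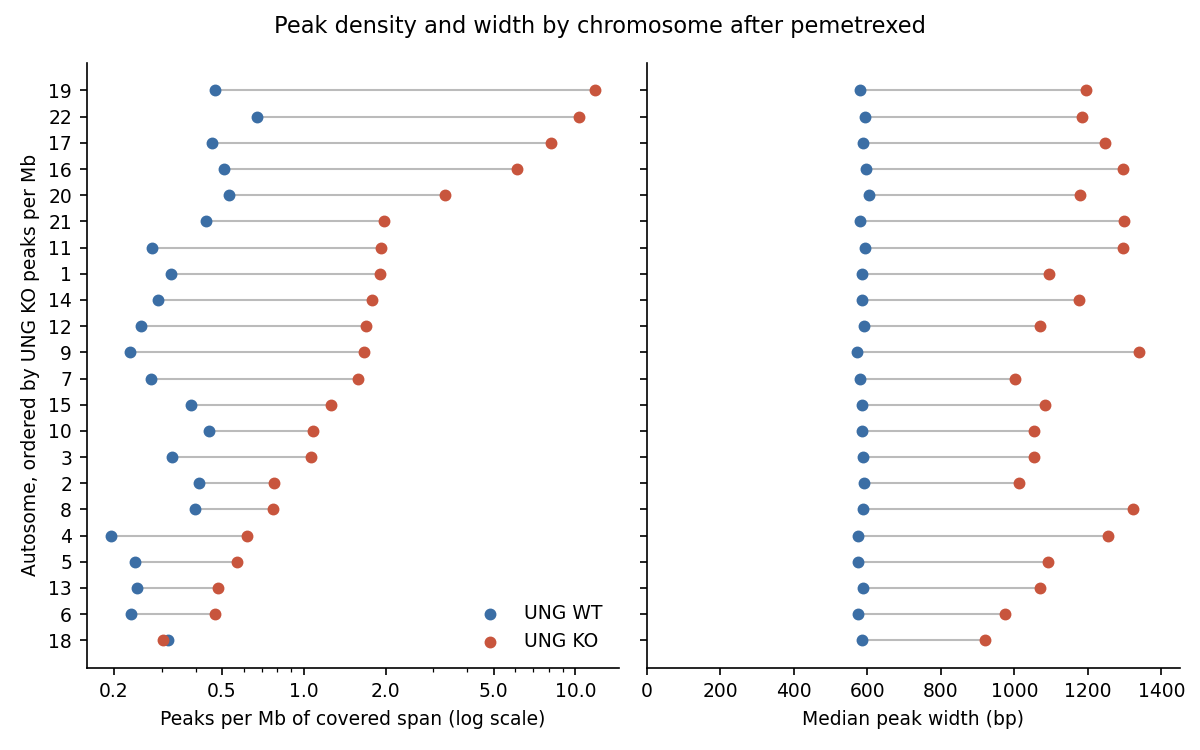
Each row is 1 of the 22 autosomes, ordered by KO peaks per Mb. The left axis is peaks per Mb of covered span on a log scale and the right axis is median peak width in bp, with WT in blue and KO in red. Density spreads from 0.304 to 11.8 per Mb in KO and from 0.195 to 0.673 in WT, and every KO median width lies to the right of every WT one.

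KO peaks stood in dense runs, and WT peaks mostly stood alone. A cluster was defined as a run of peaks of 1 list with at most 50 kb from the end of one peak to the start of the next. In the KO list, 2957 peaks (56.0%, 54.7 to 57.4%) lay in 234 clusters of 5 or more peaks, found on all 22 autosomes. In the WT list there was 1 such cluster, with 10 peaks (1.08%, 0.520 to 1.98%). Peaks with no neighbour inside 50 kb made up 90.5% of the WT list (836 peaks) and 19.4% of the KO list (1022 peaks). A longer list forms clusters more readily. Among the 924 widest KO peaks, as many as the WT list holds, 41.9% were in clusters of 5 or more. Width and clustering went together in KO, so a choice by width favours clustered peaks. This value therefore does not settle what list length contributes. The share moved with the distance allowed, from 32.1% at 20 kb to 71.2% at 100 kb in KO, against 0.758% and 1.08% in WT. The clustered share also varied along the genome. On chromosome 19, 79.2% of the 751 KO peaks lay in 36 clusters of 5 or more, and on chromosome 16, 73.4% of 541 lay in 25. Chromosome 17 had 30 such clusters with 63.2% of its 639 KO peaks, and chromosome 22 had 18 with 62.5% of 352. Clustering was not limited to chromosomes with many peaks, since on chromosome 13, 27 of only 46 KO peaks (58.7%) lay in 3 clusters. The lowest share was on chromosome 6, where 1 cluster held 5 of 78 KO peaks (6.41%), and chromosome 18 had 1 cluster with 6 of its 23 peaks (26.1%).

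The distance from one KO peak to the next had a median of 20.5 kb (quartiles 4.93 and 84.5 kb), against 1714 kb in WT (642 and 4065 kb). Gaps of at most 5 kb made up 25.1% of KO gaps and 1.67% of WT gaps. Within the KO clusters of 5 or more, the median gap was 7.52 kb and 40.9% of gaps were at most 5 kb. Such a cluster spanned a median of 126 kb, and peaks covered 15.7% of the joint span of 38.7 Mb.

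Peaks in larger KO clusters were wider. The median width was 944 bp for the 1022 KO peaks that stood alone, 1104 bp for those in clusters of 3 to 4, 1238 bp in clusters of 5 to 9, 1405 bp in clusters of 10 to 19 and 1751 bp in the 36 clusters of 20 or more. Peaks of at least 2 kb made up 5.28% of the solitary peaks (54 of 1022) and 43.3% of those in clusters of 20 or more (515 of 1189). These 36 clusters held 22.5% of KO peaks and 32.6% of KO covered bases in 13.97 Mb. Solitary KO peaks were still wider than solitary WT peaks, whose median was 582 bp (quartiles 545 and 630 bp, against 829 and 1243 bp). Over the 234 KO clusters, Spearman's rho between number of peaks and median width was 0.35. The clusters all come from 1 library, and 1 calling step set both values.

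**Figure D3:**
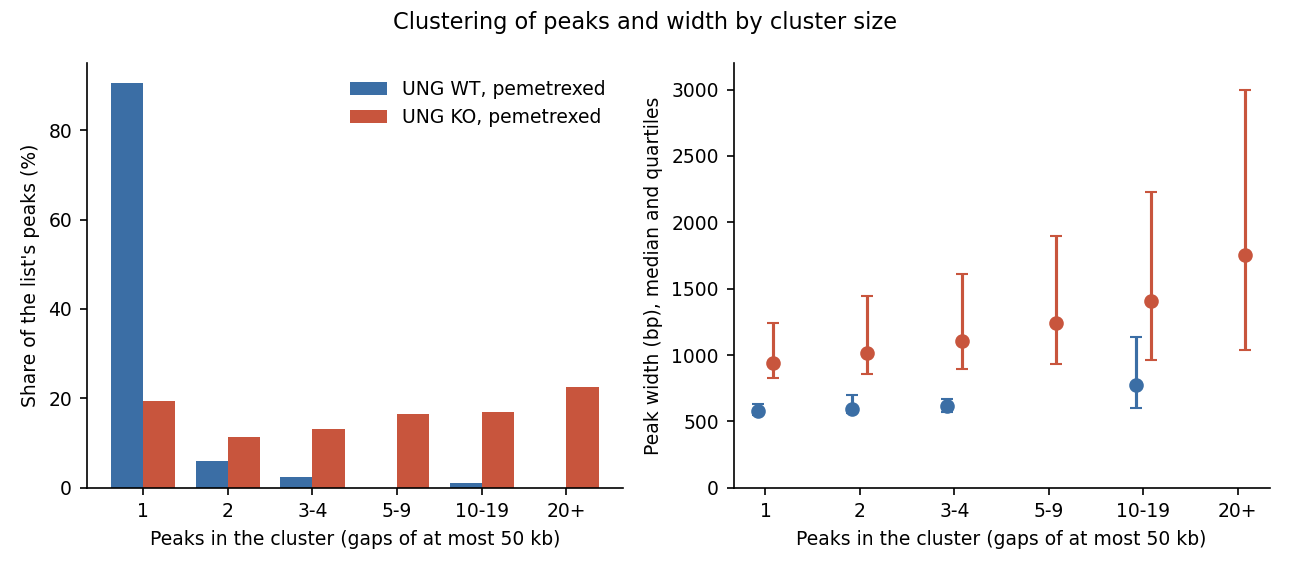
The left panel gives the percentage of each list's peaks by the number of peaks in their cluster (gaps of at most 50 kb), and the right panel gives the median peak width in bp with the quartiles as bars, for WT (blue) and KO (red). Solitary peaks are 90.5% of the WT list and 19.4% of the KO list, and the KO median rises from 944 bp in solitary peaks to 1751 bp in clusters of 20 or more. WT has no peak in the classes 5-9 and 20+.

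The 10 KO clusters with the most peaks held 547 peaks, 10.4% of the list, and 14.6% of its covered bases within 5.34 Mb on 6 chromosomes. Of the 10, 8 began or ended within 2 Mb of an end of the covered span of their chromosome. These ends are set by the outermost peaks of the lists themselves, and the cluster on chromosome 20 reached one of them. The matching share of all KO clusters is not given here, so the count does not set these 10 apart. The largest was chr16:87746526-88526875, near the end of the long arm. It had 95 KO peaks over 780 kb, and they covered 35.9% of it, with a median width of 2295 bp and a widest peak of 13162 bp. No WT pemetrexed peak fell in it.

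The short-arm end of chromosome 19 held 3 of the 10. chr19:476027-958823 had 57 KO peaks and 1 WT peak, chr19:1012617-1581551 had 57 and 0, and chr19:1732457-2373511 had 80 and 0. A further cluster on this chromosome, chr19:10646172-11032942, had 32 and 0. Chromosome 17 contributed chr17:77596678-78331674 with 66 KO peaks and 1 WT peak, at the end of its long arm. The other clusters near chromosome ends were chr20:61593670-62219373 (50 KO and 2 WT peaks), chr1:1443145-1965461 (39 and 1) and chr16:100021-442294 (37 and 0).

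A cluster on chromosome 22, chr22:34980132-35237961, lay 14.2 Mb or more from both ends of the covered span. It was the most densely filled, with 34 KO peaks in 258 kb, 13.2 per 100 kb, covering 36.5% of it, and 1 WT peak. Over the 10 clusters, density ran from 7.47 to 13.2 peaks per 100 kb and median width from 1392 to 2295 bp. Together they held 6 WT pemetrexed peaks, and 5 of the 10 held at least 1. The KO and WT cisplatin lists had 89 and 34 peaks in the same 10 spans, which were chosen for their KO pemetrexed peaks.

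**Figure D4:**
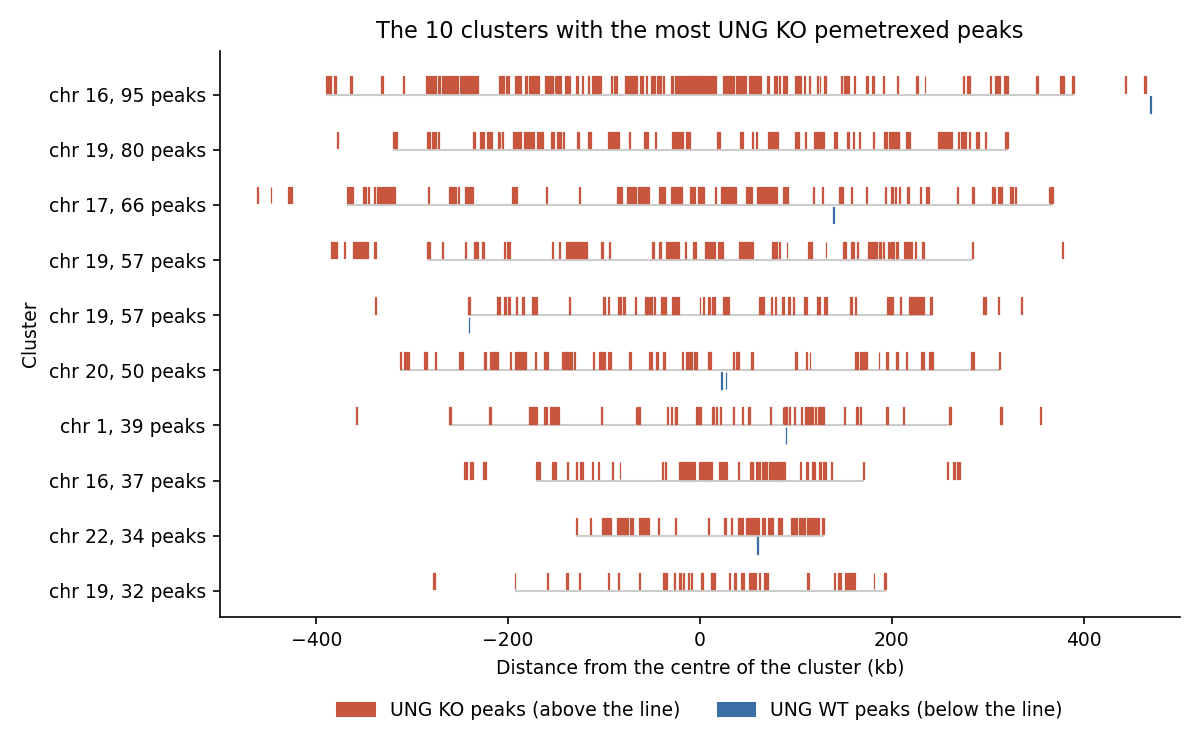
Each row is 1 of the 10 KO clusters with the most peaks, drawn to the same scale as distance in kb from its centre, with the grey line marking its span. KO peaks (red) are above the line and WT peaks (blue) below it, neighbouring peaks within 100 kb are included, and outlines make the narrowest peaks look slightly wider than they are. The rows hold 32 to 95 KO peaks inside the grey span and 0 to 2 WT peaks.

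The share of WT peaks within KO clusters was small, though above the share of the covered span that these clusters took up. Of 916 WT peaks on placed chromosomes, 29 (3.17%, 2.13 to 4.52%) lay in one of the 234 KO clusters of 5 or more, which took up 1.37% of the covered span, and 26 of the 234 clusters (11.1%) held one. The covered span includes long stretches without a peak in any list, which lower the 1.37%. The KO cisplatin list, 4562 placed peaks long, had 504 peaks (11.05%, 10.2 to 11.99%) in 176 of these clusters, and the WT cisplatin list had 195 of 1805 (10.8%, 9.41 to 12.3%) in 110. The clusters were drawn from the KO pemetrexed list, and the WT pemetrexed share was the lowest of the other three lists. At single places the lists met 13 times at a minimum of 1 bp, which is 1.41% of the WT list (0.751 to 2.39%) and 0.246% of the KO list (0.131 to 0.421%). KO peaks covered 8.97 Mb, against a covered span of 2825 Mb, so a low share does not by itself mean that the lists avoided each other. Whether 13 is more or fewer than placement alone would give was not tested. In 12 of the 13 pairs the WT peak lay wholly inside the KO peak. The WT peaks of the pairs were 413 to 725 bp wide with a median of 580 bp, close to the median of their list. The KO peaks of the pairs were 863 to 5785 bp wide with a median of 1469 bp, against 1172 bp over the KO list. A wider peak is met more readily at 1 bp. Of the 13, 9 belonged to a cluster of 5 or more, as did 56.0% of all KO peaks.

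In the pair with the widest KO peak, chr1:1104246-1110031 (5785 bp, in a cluster of 30) enclosed the 560 bp WT peak chr1:1108686-1109246. Also on chromosome 1, chr1:1791966-1794537 (2571 bp, in a cluster of 39) enclosed chr1:1793579-1794159 (580 bp). The KO peak chr22:35168186-35170297 (2111 bp), which enclosed chr22:35168389-35168986 (597 bp), belonged to the densely filled chromosome 22 cluster described above. The first peak of the chr19:476027-958823 cluster (476027 to 477393, 1366 bp) enclosed the WT peak chr19:476269-476851 (582 bp). The remaining pair with a KO cluster of 20 or more peaks was on chromosome 14, where chr14:104578512-104580430 (1918 bp) enclosed chr14:104579315-104579728 (413 bp). In these 5 pairs the WT peak thus marked 1 point of a run that the KO list covered with 20 to 57 peaks.

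The other 8 pairs had KO clusters of 1 to 18 peaks. On chromosome 17 they were the WT peaks chr17:1058240-1058674, chr17:52687586-52688289 and chr17:70839393-70839910. The second of these was the only one that reached beyond its KO peak, sharing 514 of 703 bp. On chromosomes 16, 19 and 22 they were chr16:30634426-30634991, chr19:19378927-19379436 and chr22:45336683-45337408. The last were chr7:151788333-151788914 and chr14:102865609-102866258, the latter meeting a KO peak of 1810 bp that stood alone. The KO peak was 1.59 to 10.3 times as wide as the WT peak over the 13 pairs.

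WT peaks lay closest to KO peaks on chromosomes 17, 19 and 22, where KO peaks were dense. The median distance from a WT peak to the nearest KO peak was 0.895 Mb (0.731 to 1.16 Mb), and 20.2% of the 911 WT peaks with a KO peak on their chromosome (184, 17.6 to 22.95%) were within 100 kb of one. The median was 0.0211 Mb on chromosome 19, 0.0511 Mb on chromosome 22 and 0.0549 Mb on chromosome 17, and it reached 4.97 Mb on chromosome 5. On chromosome 19, 21 of 30 WT peaks were within 100 kb of a KO peak, and on chromosome 5 it was 1 of 43. In the other direction the median distance was 0.587 Mb (0.558 to 0.616 Mb), and 12.8% of KO peaks (11.9 to 13.8%) were within 100 kb of a WT peak. These distances depend on how many peaks each list has, so the directions cannot be ranked against each other.

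**Figure D5:**
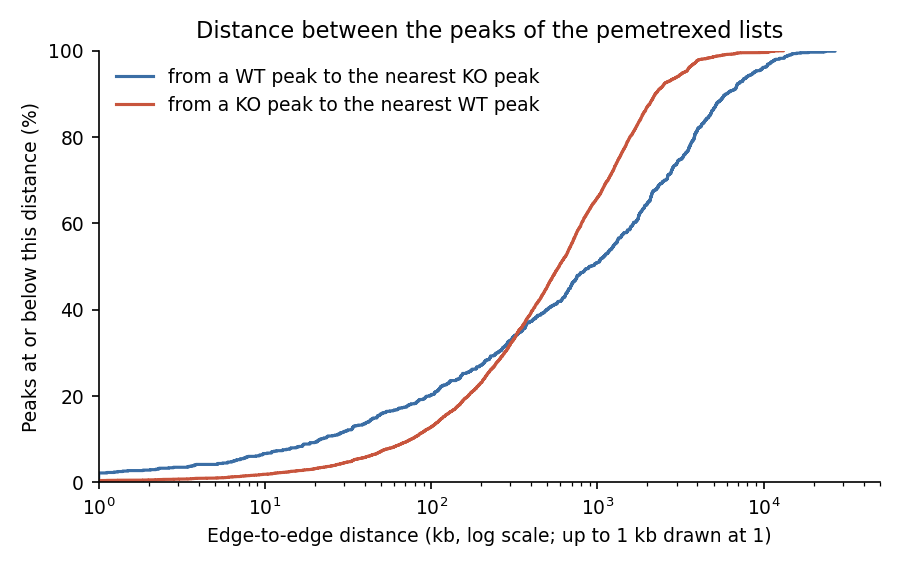
The horizontal axis is the edge-to-edge distance in kb to the nearest peak of the other list on a log scale, with distances up to 1 kb drawn at 1, and the vertical axis is the percentage of peaks at or below it. The blue curve (WT to KO) passes 20.2% at 100 kb and the red curve (KO to WT) 12.8%. They cross before 1000 kb, where WT stands at 50.9% and KO at 65.9%.

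The lists were also compared in windows of 1 Mb, of which 2847 lay in the covered span, 731 (25.7%) with a WT peak and 708 with a KO peak. Of 1169 windows with a peak of either list, 438 (37.5%) had KO peaks alone, 461 (39.4%) had WT peaks alone and 270 (23.1%) had both. The KO-only windows held 3052 KO peaks, 57.8% of the list, with up to 97 in a window, while the WT-only windows held 561 WT peaks, 60.7% of the list, and 381 of them had a single peak. In the 270 windows with both lists, KO peaks were at least 2 times as many as WT peaks in 185, and WT peaks were more numerous in 15. Of all 1169 windows these are 15.8% and 1.28%, though only the 270 could qualify. The KO list was 5.71 times as long, which by itself favours windows with more KO peaks. WT peaks were more frequent in windows with KO peaks than in those without. Of the 708 windows with a KO peak, 38.1% (34.5 to 41.8%) held a WT peak, and of 2139 windows of the covered span without one, 21.6% (19.8 to 23.4%) did. Stretches without a peak in any list, such as 23.2 Mb on chromosome 1 and 28.2 Mb on chromosome 9, fall among the 2139 and lower the second share. The share did not climb steadily with the number of KO peaks. It was 31.9% (25.7 to 38.6%) with 1 KO peak, 40.8% (34.0 to 47.8%) with 2 to 4, 33.3% (25.4 to 42.1%) with 5 to 9, 49.4% (38.1 to 60.7%) with 10 to 19 and 44.7% (33.3 to 56.6%) with 20 or more. In the 270 windows with both, Spearman's rho between the numbers of KO and WT peaks was 0.05. Of these windows, 202 held a single WT peak, so with so many ties the value says little about a relation.

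The 5 WT clusters named here, those with the most peaks, held no KO pemetrexed peak. Each spanned only 28.1 to 69.5 kb, and the median KO density over the autosomes was 1.63 peaks per Mb. A count of 0 in such short spans therefore says little. The only WT cluster of 5 or more, chr16:44943249-45012734, had 10 WT peaks of 371 to 1518 bp in 69.5 kb, with a median width of 775.5 bp. It began where the longest stretch of chromosome 16 without a peak in any list ended, 35116304 to 44943249, which includes the centromere. The KO pemetrexed list had no peak in this cluster, and its nearest peak was 217073 bp from the last WT peak. The KO cisplatin list had 0 peaks there and the WT cisplatin list 1. The other WT clusters with the most peaks were chr8:46971134-47022571 with 4 peaks, and chr8:99927035-99992545, chr3:45576533-45613033 and chr1:230459677-230487803 with 3 each, the longest of 6 WT clusters tied at 3 peaks. The 6 together held 0 KO pemetrexed peaks. How well reads map at any of these WT clusters was not tested.

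By window, WT peaks were most numerous at 44000001 to 45000000 on chromosome 16, in the WT cluster chr16:44943249-45012734, with 7 WT and 0 KO peaks. Next came 50000001 to 51000000 on chromosome 19 with 5 WT and 21 KO peaks, 38000001 to 39000000 on chromosome 10 with 4 and 0, and 170000001 to 171000000 on chromosome 1 with 4 and 1. The fifth, 230000001 to 231000000 on chromosome 1 with 3 and 0, was 1 of 25 windows tied at 3 WT peaks. The longest stretches free of KO peaks on the chromosomes with the most of them still held WT peaks. On chromosome 16, 14 of the 45 WT peaks lay between 31135909 and 45229807, 14.1 of 88.6 Mb of covered span, with no KO pemetrexed peak. Of these 14, 10 were the same WT cluster. On chromosome 19, 5 of the 30 lay between 19601911 and 37838542 (18.2 of 63.4 Mb). On chromosome 17, 2 of the 36 lay between 9538536 and 16141306 (6.60 of 78.5 Mb). The stretches on chromosomes 16 and 19 include the centromere.

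Both pemetrexed lists had few peaks on the sex chromosomes. Chromosome X held 2 of the 5278 KO peaks (0.0379%, 0.00459 to 0.137%), at chrX:53332869-53333294 and chrX:53570091-53570705, of 425 and 614 bp. It held 0 of the 924 WT peaks, for which 3 counts would be 0.325% of the list. Chromosome Y held 5 WT peaks (0.541%, 0.176 to 1.26%), including, at 1062 bp, one of the 10 widest of the list at chrY:12142466-12143528, and 0 KO peaks, for which 3 counts would be 0.0568%. The cisplatin lists were also sparse on chromosome X, with 6 KO and 2 WT peaks, all between 48332904 and 61800030. On chromosome Y the order was the reverse of that after pemetrexed, with 24 KO cisplatin peaks (0.525%, 0.337 to 0.780%) and 0 WT cisplatin peaks.

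Cisplatin, a platinum compound that crosslinks DNA, gave the same order of genotypes with smaller ratios. The KO over WT ratio of median width was 1.30 after cisplatin (813 against 623 bp) and 2.003 after pemetrexed. Clusters of 5 or more held 6.21% of KO cisplatin peaks (5.53 to 6.95%) and 0 of 1807 WT cisplatin peaks, for which 3 counts would be 0.166%. The largest KO cisplatin cluster had 12 peaks, against 95 after pemetrexed. The genotypes met at 32 places under cisplatin, 1.77% of the WT list (1.21 to 2.49%) and 0.700% of the KO list (0.479 to 0.987%), against 13 under pemetrexed, 1.41% and 0.246%. With 1 library for each, these differences between the drugs were not tested, and a difference between libraries cannot be told apart from one between genotypes or drugs.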

How the data were processed

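γH2AX was measured by chromatin immunoprecipitation and sequencing in DLD1 cells, with groups taken from the sample titles. Per the submitters' processing notes, reads went through Bowtie (version not named) and MACS 1.4 on build hg18. For the control library, the threshold and the filters, the sources used here give nothing. Per the file headers, the deposited lists give chromosome, start and end alone. A deeper library or another control can change the number and width of peaks, and depth is unknown. Whether listed starts are 0-based or 1-based is likewise unknown, so a start may be off by 1 bp.

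Width was end minus start. Clusters (gaps of at most 50 kb), overlaps (at least 1 bp), edge-to-edge distances and 1 Mb windows (by midpoint) were computed in Python 3.11.15 with pandas 2.3.3 and scipy 1.17.1, and the functions were tested on simulated lists. Unplaced contigs were left out of windows and chromosome values. Named regions were the 10 widest peaks per list (some WT ones given as counts by chromosome), the 10 KO and 5 WT clusters with the most peaks, every WT peak meeting a KO peak, the 5 windows with the most WT peaks, the chromosomes of extreme density and the longest KO-free stretches on the 3 chromosomes with the most KO peaks. Coordinates of another build were not used, and the gene lists drawn up for an hg18 annotation were not applied. The members, rules and alternatives were chosen with earlier results of these data known.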

Additional observations from a re-analysis of the deposited data

Results flagged for a closer look

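Peaks on unplaced contigs lie outside the chromosome and window values above. There were 8 in the WT pemetrexed list (0.866%, 95% exact binomial interval 0.375 to 1.70%) and 6 in the KO pemetrexed list (0.114%, 0.0417 to 0.247%). Both counts exceed 3, the limit that a count of 0 allows, which compares neither list with the other.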

How the results depend on the processing

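Of 34 alternative values for 7 results, 8 stayed within the counting interval of the value reported and 26 moved, none of them across 1 for a ratio. For the ratio of covered bases, 16.03, the interval used was 14.9 to 17.2. It rests on counting error in peak number alone and leaves out the spread of widths. No paired analysis was possible because no group holds a second library. With peaks within 10 kb joined, the KO over WT ratio was 3.76 for peak number, 24.4 for covered bases and 2.23 for median width, and 31.0% of KO peaks were in clusters of 5 or more. With peaks of at least 600 bp alone (335 WT and 5212 KO), the ratios were 15.6, 37.4 and 1.76. Without chromosomes 16, 17, 19 and 22 they were 3.79, 10.2 and 1.92, the clustered share was 44.8%, 0.633% of WT peaks met a KO peak and the median distance to one was 1.32 Mb. With the 924 widest KO peaks alone (2340 bp or more), the ratio of covered bases was 6.83 and of median width 5.67. The widest WT peak was 1851 bp, so selection by width puts both ratios above 1, and they test nothing. In this subset the share of WT peaks met was 0.216%, the clustered share 41.9%, the KO-only windows 12.7% and the distance 8.88 Mb. The share of WT peaks met was 0.325% at a reciprocal overlap of 50% and 6.60% at a tolerance of 10 kb. The clustered share was 32.1% at 20 kb, 71.2% at 100 kb and 69.2% for clusters of 3 or more. KO-only windows were 48.3% at 500 kb and 26.3% at 2 Mb. Unknown depth limits every count, and a stricter calling threshold could not be applied without scores.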
